A study of Homo sapiens with 16 samples.

Results

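NCI-H526 and NCI-H1048 are established human small cell lung cancer (SCLC) cell lines of the POU2F3 molecular subtype (SCLC-P), and their gene expression was compared here without degrader, in cells that had received only the vehicle dimethyl sulfoxide (DMSO). The comparison used 4 of the 16 RNA sequencing libraries of the series, which were chosen by their labels: the pair of NCI-H526 DMSO libraries against the pair of NCI-H1048 DMSO libraries. The other 12 libraries were treated with AU-15330, a proteolysis targeting chimera that degrades the chromatin remodeling ATPases SMARCA2 and SMARCA4, or came from the multiple myeloma lines NCI-H929 and MM1.S, and of these the 4 AU-15330 libraries of the SCLC-P lines and, for 1 check, the MM1.S libraries are used below. Both lines were grown in RPMI medium with fetal bovine serum and antibiotics, and both were sequenced from polyadenylated RNA. The sample titles give 24 h of treatment and other fields of the labels give shorter ranges, so the time in DMSO is not settled.

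The comparison rests on 1 line against 1 line, so the differences below are those between these lines and do not describe the spread among SCLC-P tumours. A difference in line cannot be told apart from a difference in culture or library batch, and the labels do not say whether the libraries of a line came from separate cultures. The p-values therefore measure only the spread between these samples, which may be technical. Estimated depth was 38.1 and 43.0 M reads in NCI-H526 and 39.2 and 33.3 M reads in NCI-H1048, between 13689 and 13822 genes per library had a value of at least 1, and mitochondrial transcripts took 5.30 to 5.45% of each library. Across genes, log2 values correlated with r = 0.998 between the NCI-H526 libraries, 0.997 between the NCI-H1048 libraries and 0.724 to 0.726 between the lines, where genes are not independent replicates. The libraries of a line differed by more than estimated counting noise, an excess that may be technical. Each library was counted as 1 sample.

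POU2F3 is the POU domain transcription factor that specifies tuft cells, chemosensory epithelial cells that sense luminal substances through taste receptor signaling and release eicosanoids and acetylcholine. It binds the octamer DNA motif and activates transcription through small coactivators, POU2AF2 and POU2AF3, which are relatives of the B cell coactivator POU2AF1. SCLC of this subtype resembles tuft cells, whereas other subtypes, such as the NEUROD1 subtype, are neuroendocrine, and a YAP1 group is neither. By its marker the subtype label held in both lines. POU2F3 stood at rank 46 among all genes by level in NCI-H526 and at rank 186 in NCI-H1048. NEUROD1 was 2.11 and 2.01 in NCI-H526 and 0.228 and 0.181 in NCI-H1048. YAP1, the transcriptional coactivator repressed by Hippo signaling, was low in NCI-H526 but not in NCI-H1048, as detailed below. Some markers of possible other cells were low, and others of the same lists were expressed. T cell CD3E was 0 in all 4 libraries, the leukocyte gene PTPRC was 0.583 and 0.393 in NCI-H526 and 0.279 and 0.314 in NCI-H1048, and the plasma cell gene JCHAIN was 0.0541 and 0 in NCI-H526 and 0.0999 and 0.0892 in NCI-H1048. Of the plasma cell list 7 of 18 genes were high enough to be tested (4 higher in NCI-H526 and 3 in NCI-H1048) and of the haematopoietic list 6 of 20 (2 and 4). The summed level of the plasma cell list was 196 in each NCI-H526 library and 220 to 227 in NCI-H1048. That of the haematopoietic list was 30.4 to 30.6 in NCI-H526 and 54.7 to 57.7 in NCI-H1048.

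Values are the deposited normalized read counts, close to CPM, and differences are NCI-H526 minus NCI-H1048 on the log2(value + 0.5) scale, so a positive difference is higher in NCI-H526 and the change of low genes is understated. A gene was called at an adjusted p under 0.05 in limma with Benjamini-Hochberg adjustment over all tested genes. Where a group is at or near 0, levels are given in place of a fold.

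Most tested genes differed between the lines. Of 14361 genes tested, 12134 were called (84.5%), 5964 higher in NCI-H526 (41.5%) and 6170 higher in NCI-H1048 (43.0%). With so large a background a call alone says little of a gene group, and the size of the difference is read instead. A called difference of at least 2-fold was found for 5036 genes (35.1%), of which 2263 were higher in NCI-H526 (15.8%) and 2773 in NCI-H1048 (19.3%), and a called difference of at least 8-fold for 1241 genes (8.64%), of which 595 were higher in NCI-H526 (4.14%) and 646 in NCI-H1048 (4.50%). The libraries of the lines did not overlap for 91.7% of tested genes. The median difference over all tested genes was -0.02, with the middle 50% of genes between -0.72 and 0.62. In bulk RNA a lower level in every cell and fewer cells with the transcript cannot be told apart, which applies to every gene below.

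**Figure D1:**
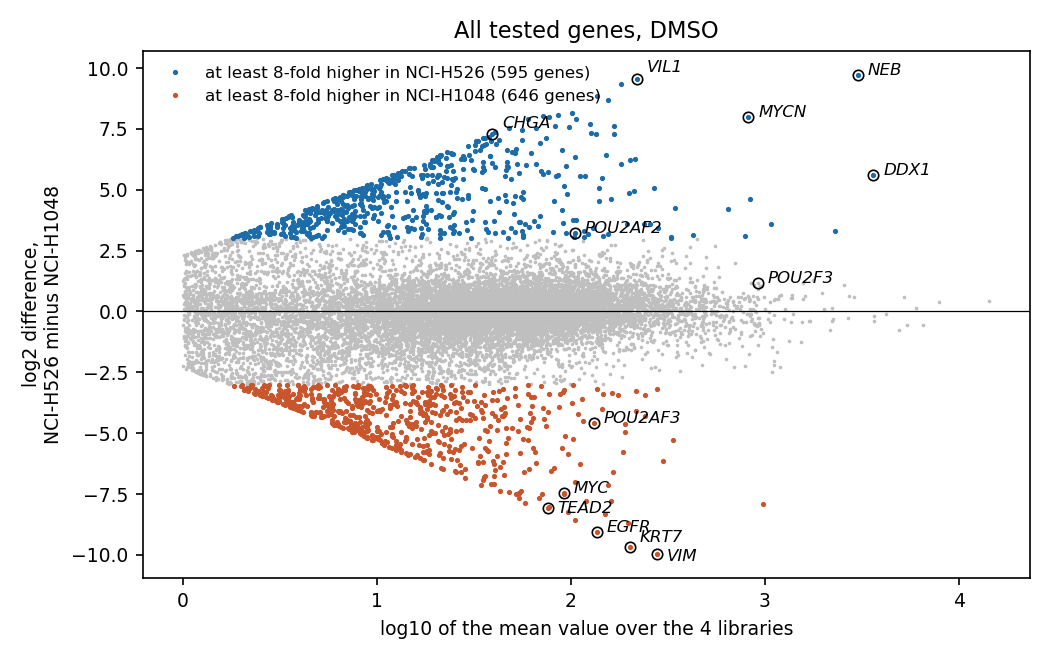
Mean value over the 4 DMSO libraries (x axis, as log10) against the log2 difference, NCI-H526 minus NCI-H1048 (y axis), for the 14361 tested genes, with genes called at least 8-fold apart coloured by the line in which they were higher. The 595 genes higher in NCI-H526 and the 646 higher in NCI-H1048 lie on either side of a median near 0, with NEB at 9.73 and VIM at -9.96 at the ends, and POU2F3 (log2 difference 1.18) lies among the grey genes of smaller difference.

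Among protein-coding autosomal genes whose mean was 10 or more, the highest in NCI-H526 over NCI-H1048 was NEB, which encodes the muscle thin filament protein nebulin, with 6050.1 and 6025 in NCI-H526 and 6.54 and 6.71 in NCI-H1048 (log2 difference 9.73 ± 0.039 SE, adjusted p = 1.8e-12). It was the gene of rank 6 by level in NCI-H526 and of rank 11185 in NCI-H1048. Next came VIL1, which encodes the microvillus protein villin and is a tuft cell marker (436 and 441 in NCI-H526 and 0.050 and 0.119 in NCI-H1048), HLA-C (365 and 359 in NCI-H526 and 0.0504 and 0.0603 in NCI-H1048), the sarcoplasmic reticulum gene SRL (274 and 274 in NCI-H526 and 0.102 and 0.0892 in NCI-H1048) and NMNAT2, an axonal enzyme of NAD synthesis (312 and 313 in NCI-H526 and 0.251 and 0.269 in NCI-H1048). The remaining 10 of the 15 highest were AMER2, NEFH, HSPA1A, RIMBP2, MYCN, SYT6, B3GALT5, NUGGC, COL11A1 and CLDN11. NEFH encodes a neurofilament, and RIMBP2 and SYT6 encode synaptic proteins. At the other end stood VIM, which encodes the intermediate filament vimentin, with 542 and 569 in NCI-H1048 and 0.0907 and 0.0274 in NCI-H526. The epithelial keratin KRT7 followed (410.4 and 397 in NCI-H1048 and 0 and 0 in NCI-H526), then the epidermal growth factor receptor gene EGFR (282 and 262 in NCI-H1048 and 0.027 and 0 in NCI-H526), and COL15A1, EPB41L2, LOX, VCAN, TEAD2, EPHA3, COL2A1, DLX5, SFRP1, MMP14, EFS and FSTL1 completed the 15 lowest.

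The POU2F3 complex differed most in its coactivators, and in opposite directions. POU2F3 itself was higher in NCI-H526, with 1280.2 and 1287 in NCI-H526 and 600.0 and 534 in NCI-H1048 (log2 difference 1.18 ± 0.060 SE, adjusted p = 2.6e-07). POU2AF2 was likewise higher in NCI-H526, with 191 and 189 in NCI-H526 and 20.1 and 19.4 in NCI-H1048 (log2 difference 3.24 ± 0.047 SE, adjusted p = 4.2e-10). POU2AF3 was the reverse, with 9.6 and 10.7 in NCI-H526 and 252 and 253 in NCI-H1048 (log2 difference -4.57 ± 0.061 SE, adjusted p = 3.2e-10). The values of the lines did not overlap for any of these genes, which held for 91.7% of all tested genes. Per kilobase of transcript, the coactivator levels were 142 for POU2AF2 and 9.32 for POU2AF3 in NCI-H526 against 14.7 and 231 in NCI-H1048, so POU2AF2 was the higher of the pair in NCI-H526 and POU2AF3 in NCI-H1048.

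The B cell coactivator POU2AF1 was low in both lines and higher in NCI-H1048, with 4.94 and 3.83 in NCI-H526 and 9.46 and 9.62 in NCI-H1048 (log2 difference -1.05 ± 0.13 SE, adjusted p = 7.9e-05). POU2F1, the broadly expressed octamer factor, was present in both (189 and 186 in NCI-H526 and 124 and 114 in NCI-H1048, log2 difference 0.65), and POU2F2, the lymphoid one, was near the floor of the test (1.54 and 1.84 in NCI-H526 and 0.50 and 0.714 in NCI-H1048, log2 difference 0.99). All 6 members of the list were called, 4 higher in NCI-H526 and 2 in NCI-H1048. POU2AF2 (chr11:111245725-111286401, hg38) and POU2AF3 (chr11:111298546-111308735) are neighbours on chromosome 11. Within 2 Mb of POU2AF2, 22 further genes were tested, of which 16 were called higher in NCI-H526, 4 higher in NCI-H1048 and 2 did not pass, with a median of 0.85. POU2AF3 and POU2AF1 thus went against most of the genes around them, while ARHGAP20 (log2 difference 3.67), RDX (log2 difference 1.98) and DLAT (log2 difference 1.44) were higher in NCI-H526 together with POU2AF2.

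**Figure D2:**
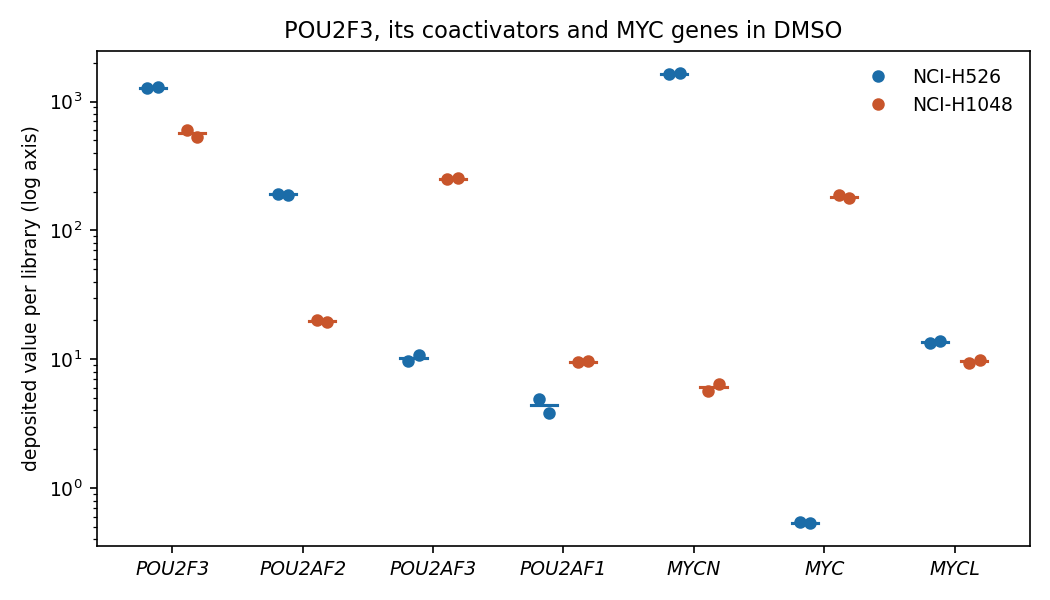
Normalized value (y axis, log scale) of POU2F3, POU2AF2, POU2AF3, POU2AF1, MYCN, MYC and MYCL in each DMSO library, with 1 point per library coloured by line. The points of a line lie almost on top of each other. POU2F3 is high in both lines, POU2AF2 and POU2AF3 change places, and MYCN (1639.8 in NCI-H526, 6.05 in NCI-H1048) and MYC (0.537 and 183) change places.

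The octamer that POU2 factors bind (ATGCAAAT, or ATTTGCAT on the opposite strand, which are reverse complements and do not overlap another motif searched) was looked for in the RefSeq promoter windows of GRCh38.p14, from 250 bases before to 50 bases after the annotated start. It was present in 237 of 11042 tested protein-coding genes with a window (2.15%) and in 7 of the 40 with a window in the tuft cell and POU2F3 complex lists (17.5%), which were BMX, ELF3, FYB1, HMX2, ITPR3, POU2F1 and SUCNR1. Among genes at least 8-fold higher in NCI-H526 it was present in 11 of 425 (2.59%), and among those at least 8-fold higher in NCI-H1048 in 19 of 486 (3.91%). The 40 genes were listed as tuft cell or POU2F3 complex genes, so their share describes that choice and not these lines. These matches are descriptions of letters in a window and not binding sites. Sequences are shown for 4 tuft cell genes that carry the motif and that differed between the lines in both directions, as 30 bases on the + strand with the octamer in capitals.
BMX, chrX:15507253-15507282, offset -44 from the start: tgatgagtgggATGCAAATatcttcttttt
HMX2, chr10:123148060-123148089, offset -65: gggtaacctctATGCAAATgaggccgcgcc
ELF3, chr1:202010448-202010477, offset -128: tggcactgaatATGCAAATcacctggggcc
ITPR3, chr6:33621288-33621317, offset -23: tcccgggcgggATTTGCATgtgtgtggtgg
BMX, HMX2 and ELF3 were higher in NCI-H526 and ITPR3 was higher in NCI-H1048. Of the genes shown, ITPR3 alone was on the NCI-H1048 side. It lies in the 29 to 34 Mb stretch of chromosome 6, whose values may carry a limit given below with the HLA genes. Among the motif genes not shown, POU2F1 was higher in NCI-H526 and SUCNR1 did not pass.

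Of the 3 tuft cell lists, the genes of taste signaling and of tuft cell structure were mostly higher in NCI-H526, while the transcription factors were divided. In the transcription factor list, of 13 tested members 7 were called higher in NCI-H526, 6 higher in NCI-H1048 and 0 did not pass (median 0.72, 6 and 2 by at least 2-fold). SPIB, an ETS factor, was 43.2 and 41 in NCI-H526 and 1.14 and 0.782 in NCI-H1048 (log2 difference 4.88 ± 0.13 SE, adjusted p = 6.6e-09). ASCL2, a basic helix-loop-helix factor of intestinal stem and tuft cells, was 83.4 and 86.3 in NCI-H526 and 9.97 and 10.2 in NCI-H1048 (log2 difference 3.01 ± 0.059 SE, adjusted p = 1.5e-09). ELF3, HMX2, HMX3 and GFI1B were higher in NCI-H526 by more than 2-fold, at log2 differences of 1.46, 1.4, log2 difference 1.17 and 1.01. All 4 genes were expressed in both lines, and HMX3, for example, was 175 and 185 in NCI-H526 and 80.8 and 78.3 in NCI-H1048.

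The members higher in NCI-H1048 were SOX9 (369 and 381 in NCI-H526 and 476 and 452 in NCI-H1048), SOX4 (586 and 577 in NCI-H526 and 1151 and 1128 in NCI-H1048), the ETS factor EHF (187 and 185 in NCI-H526 and 321 and 350.4 in NCI-H1048), KLF6, IKZF2 and GFI1. Their differences ran from -0.31 for SOX9 to -2.47 for GFI1, a zinc finger repressor that was low throughout (0.433 and 0.461 in NCI-H526 and 4.7 and 4.76 in NCI-H1048). GFI1 and its relative GFI1B therefore differed in opposite directions.

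Taste transduction in tuft cells runs from G protein-coupled receptors through a G protein and phospholipase C to inositol trisphosphate receptors and the cation channel TRPM5. In this list, of 14 tested members 9 were called higher in NCI-H526, 4 higher in NCI-H1048 and 1 did not pass (median 2.17), and 8 members were higher by at least 2-fold in NCI-H526 against 4 in NCI-H1048. The taste receptor genes TAS1R3 (20.5 and 20.6 in NCI-H526 and 0.0999 and 0.0892 in NCI-H1048) and TAS1R1 (7.22 and 7.06 in NCI-H526 and 0.225 and 0.119 in NCI-H1048), the channel gene TRPM5 (17 and 15.8 in NCI-H526 and 0.25 and 0.0297 in NCI-H1048) and the G protein subunit GNG13 (9.87 and 9.63 in NCI-H526 and 0 and 0.0297 in NCI-H1048) were present in NCI-H526 and at or near 0 in NCI-H1048. The phospholipase PLCB2 was 23.6 and 22.2 in NCI-H526 and 2.52 and 2.17 in NCI-H1048 (log2 difference 3.04 ± 0.11 SE, adjusted p = 2.9e-08), and PLCG2 was 513 and 513 in NCI-H526 and 49 and 45 in NCI-H1048 (log2 difference 3.44 ± 0.049 SE, adjusted p = 4.1e-10). For all of these the NCI-H1048 libraries were the low ones.

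The inositol trisphosphate receptor genes changed places between the lines. ITPR2 was 478 and 467 in NCI-H526 and 38.1 and 38.8 in NCI-H1048 (log2 difference 3.6 ± 0.040 SE, adjusted p = 1.5e-10). ITPR3 was 11.4 and 11.2 in NCI-H526 and 383 and 351 in NCI-H1048 (log2 difference -4.96 ± 0.055 SE, adjusted p = 1.5e-10). Per kilobase of transcript, ITPR2 was the higher of the pair in NCI-H526 (37.6 against 1.24) and ITPR3 in NCI-H1048 (40.4 against 3.06). ITPR3 lies in the 29 to 34 Mb stretch of chromosome 6 discussed with the HLA genes below. Higher in NCI-H1048 were also GNAT3, the taste G protein gustducin (1.7 and 1.5 in NCI-H526 and 4.75 and 5.68 in NCI-H1048), RGS2 and RGS21, a regulator of G protein signaling found in taste cells (0.703 and 0.728 in NCI-H526 and 30.2 and 32.2 in NCI-H1048, log2 difference -4.7). RGS13 was higher in NCI-H526 (136 and 146 in NCI-H526 and 54.2 and 60.1 in NCI-H1048), GNB3 differed little (log2 difference 0.37), and the succinate receptor SUCNR1 did not pass (3.89 and 3.69 in NCI-H526 and 4.5 and 4.43 in NCI-H1048, log2 difference -0.21 ± 0.11 SE).

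In the effector and structure list, of 23 tested members 18 were called higher in NCI-H526, 5 higher in NCI-H1048 and 0 did not pass (median 1.95), with 15 at least 2-fold higher in NCI-H526 and 4 in NCI-H1048. Structural genes of the apical tuft stood out: villin (VIL1, above), the actin-bundling gene ESPN (121 and 124 in NCI-H526 and 16 and 14.7 in NCI-H1048) and AVIL, which encodes advillin (794 and 796 in NCI-H526 and 104 and 99.3 in NCI-H1048, log2 difference 2.96 ± 0.041 SE). The kinase genes BMX (515 and 522 in NCI-H526 and 14.3 and 15.8 in NCI-H1048, log2 difference 5.06) and DCLK1, a tuft cell marker (131 and 135 in NCI-H526 and 17.8 and 16.6 in NCI-H1048, log2 difference 2.92), and the membrane gene IRAG2 (1965 and 2019 in NCI-H526 and 155 and 173 in NCI-H1048, log2 difference 3.6), followed the same direction. CHAT, which makes acetylcholine, was 10.4 and 9.05 in NCI-H526 and 0.15 and 0.0595 in NCI-H1048.

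Eicosanoid genes were divided. The cyclooxygenase PTGS1 was 33.6 and 35.6 in NCI-H526 and 0.724 and 0.892 in NCI-H1048 (log2 difference 4.75 ± 0.11 SE, adjusted p = 3.4e-09), and the phospholipase PLA2G4A, which releases arachidonic acid, was 516 and 519 in NCI-H526 and 81.4 and 89.3 in NCI-H1048 (log2 difference 2.59 ± 0.051 SE, adjusted p = 1.5e-09). The lipoxygenase of leukotriene synthesis, ALOX5, was instead higher in NCI-H1048, with 21.2 and 16.3 in NCI-H526 and 108 and 111 in NCI-H1048 (log2 difference -2.53 ± 0.11 SE, adjusted p = 8.8e-08). The libraries of the lines did not overlap for these 3 genes, which held for 91.7% of all tested genes. HPGDS was listed at 0 in all 4 libraries, and ALOX5AP and LTC4S averaged under 0.3 in each line. ANXA1, the annexin that restrains phospholipase activity, was also higher in NCI-H1048 (332 and 332 in NCI-H526 and 1722 and 1997 in NCI-H1048, log2 difference -2.48 ± 0.068 SE). KIT, the stem cell factor receptor gene expressed in SCLC-P, was close in level, at 358 and 361 in NCI-H526 and 279.8 and 299 in NCI-H1048 (log2 difference 0.31 ± 0.045 SE, adjusted p = 0.00022).

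**Figure D3:**
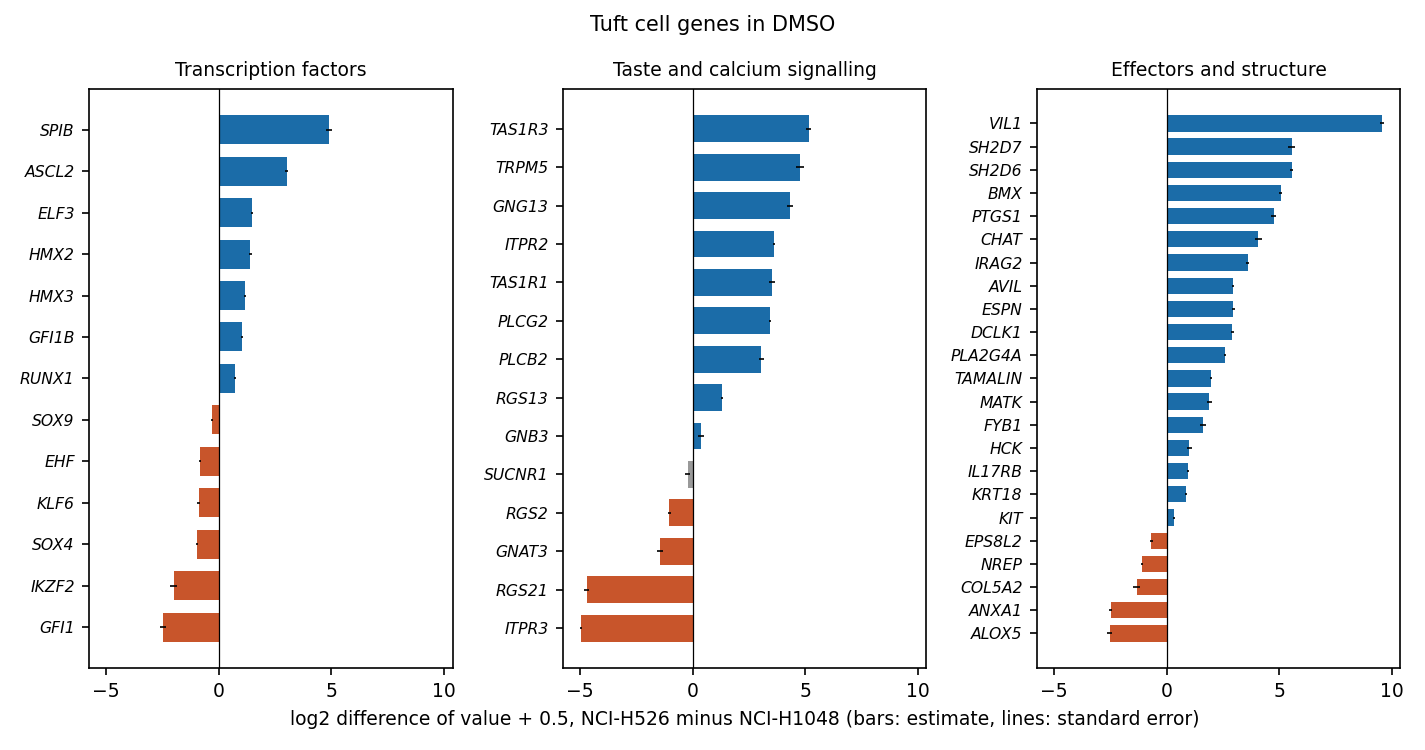
Log2 difference, NCI-H526 minus NCI-H1048, of every tested member of the 3 tuft cell lists, with bars from 0 and error lines of 1 SE from the fit of the 4 DMSO libraries. Most bars of the taste and effector lists point to the NCI-H526 side (9 of 14 and 18 of 23), and the transcription factors are split 7 to 6.

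The lines expressed different MYC genes. MYCN was 1622 and 1658 in NCI-H526 and 5.67 and 6.42 in NCI-H1048 (log2 difference 7.97 ± 0.059 SE, adjusted p = 7.5e-11), and MYC was 0.541 and 0.534 in NCI-H526 and 189 and 177 in NCI-H1048 (log2 difference -7.47 ± 0.082 SE, adjusted p = 1.4e-10). By level, MYCN was the gene of rank 30 in NCI-H526 and of rank 11317 in NCI-H1048, and MYC was of rank 954 in NCI-H1048 and of rank 14746 in NCI-H526. MYCL, the third gene of the family and the one first found in SCLC, was low in both (13.4 and 13.9 in NCI-H526 and 9.42 and 9.81 in NCI-H1048, log2 difference 0.48 ± 0.085 SE). Per kilobase of transcript MYCN reached 628 in NCI-H526 and MYC 49.2 in NCI-H1048.

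Partners and antagonists differed less. Of the 13 network members tested, 8 were called higher in NCI-H526 and 5 in NCI-H1048, and the obligate partner MAX was 60 and 62 in NCI-H526 and 43.3 and 45.1 in NCI-H1048 (log2 difference 0.46 ± 0.051 SE). MLXIP (265 and 260.5 in NCI-H526 and 33.3 and 27.9 in NCI-H1048, log2 difference 3.09), which encodes the glucose sensor MondoA, and the antagonists MXD1 (log2 difference 1.92), MGA (log2 difference 1.31) and MNT (log2 difference 0.55) were higher in NCI-H526. MXD3 (10.5 and 11.5 in NCI-H526 and 56 and 49.5 in NCI-H1048, log2 difference -2.21), the carbohydrate response factor MLXIPL (log2 difference -2.57) and MXI1 (log2 difference -0.74) were higher in NCI-H1048, and MLX and MXD4 differed by 0.21 and -0.14.

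Genes next to MYCN were high in NCI-H526 as well. DDX1, an RNA helicase gene, was 7099.7 and 7149.6 in NCI-H526 and 138 and 151 in NCI-H1048 (log2 difference 5.62 ± 0.055 SE, adjusted p = 9.1e-11) and was the gene of rank 3 by level in NCI-H526. NBAS, a gene of vesicle transport, was 1614 and 1605 in NCI-H526 and 61.6 and 68.8 in NCI-H1048 (log2 difference 4.62 ± 0.055 SE, adjusted p = 1.9e-10). CYRIA was 93.2 and 92.6 in NCI-H526 and 15.4 and 16.2 in NCI-H1048 (log2 difference 2.52 ± 0.056 SE, adjusted p = 2.5e-09). These 3 genes and LRATD1 (log2 difference 1.88) are the tested genes nearest to MYCN (chr2:15940550-15947007, hg38), whereas VSNL1 (log2 difference -1.72), SMC6 (log2 difference -0.53), GEN1 (log2 difference -0.24) and KCNS3 (log2 difference -3.31), the tested genes on the far side within 2 Mb, were lower in NCI-H526. The other members of the neighbour list, TRIB2 (log2 difference -2.01) and ROCK2 (log2 difference -0.15), lie farther away and were also lower. RNA does not give copy number, which was not measured in these files. The 2 tested genes within 2 Mb of MYC were higher in NCI-H1048, LRATD2 (26.6 and 25.3 in NCI-H526 and 101 and 97.7 in NCI-H1048, log2 difference -1.92) and POU5F1B, a retrogene close in sequence to POU5F1 (0.205 and 0.335 in NCI-H526 and 7.85 and 7.58 in NCI-H1048).

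**Figure D4:**
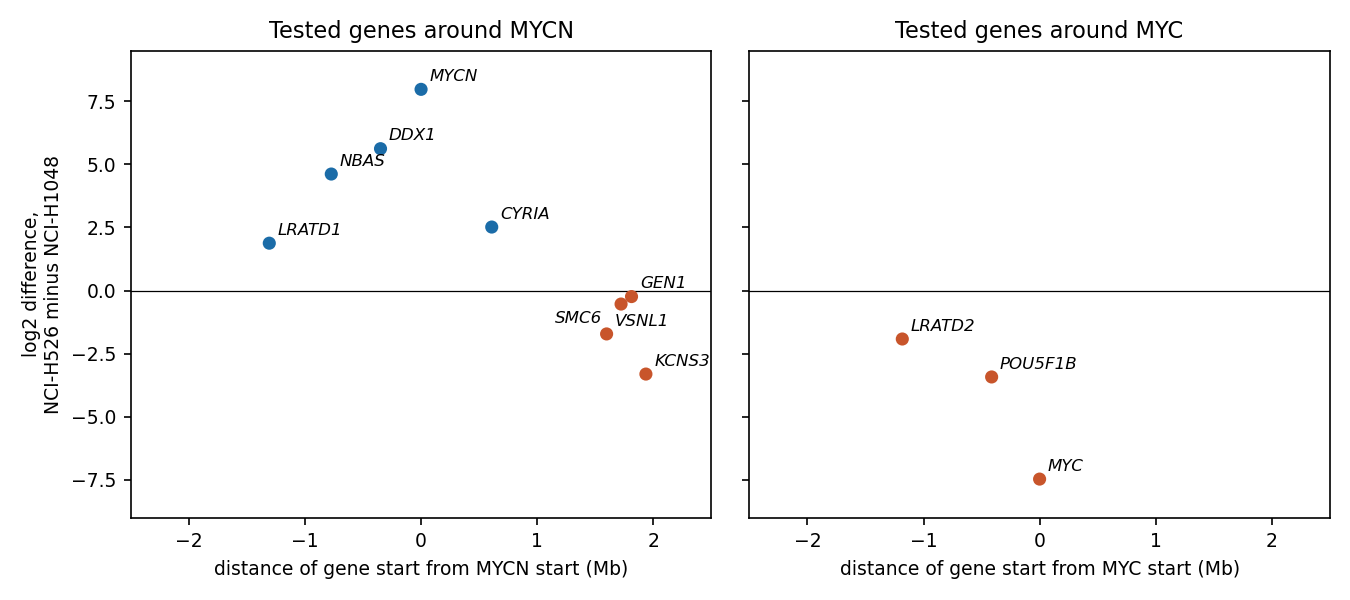
Log2 difference, NCI-H526 minus NCI-H1048 (y axis), of tested genes by their distance in Mb from the start of MYCN (left) and of MYC (right), within 2 Mb. Around MYCN the positive differences form a block that includes NBAS (log2 difference 4.62), DDX1 (log2 difference 5.62) and CYRIA (log2 difference 2.52) and give way to negative ones on the far side. Around MYC only 2 further genes were tested and both differences are negative.

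Genes that MYC proteins are known to activate, among them genes of ribosome biogenesis, were mostly higher in NCI-H526. Of 30 tested members 25 were called higher in NCI-H526, 3 higher in NCI-H1048 and 2 did not pass (median 0.71), with 10 at least 2-fold higher in NCI-H526 and 0 in NCI-H1048. The largest were IMP4 (547 and 569 in NCI-H526 and 141 and 142 in NCI-H1048, log2 difference 1.98), the pseudouridine synthase DKC1 (log2 difference 1.85), ODC1, which starts polyamine synthesis (766 and 769.8 in NCI-H526 and 210.3 and 233 in NCI-H1048, log2 difference 1.79), the nucleolar gene NOP56 (log2 difference 1.38), PUS7 (log2 difference 1.29) and RRS1 (log2 difference 1.2). TCOF1 and NOP16 did not pass (log2 difference 0.12 and 0.09), and MYBBP1A (log2 difference -0.15), GNL3 (log2 difference -0.29) and the nucleolar chaperone NPM1 (778 and 775 in NCI-H526 and 1036 and 1149.7 in NCI-H1048, log2 difference -0.49) were higher in NCI-H1048. The E-box CACGTG that MYC dimers bind, which reads the same on both strands, was found in the same promoter windows of 14 of 24 of these genes (58.3%), against 12.4% of all tested protein-coding genes, 12.0% of those at least 8-fold higher in NCI-H526 and 9.47% of those at least 8-fold higher in NCI-H1048. The 24 genes were listed for known activation by MYC proteins, so their share describes that choice and not these lines. These matches too are letters in a window and not binding sites. Cytosolic ribosomal proteins went the opposite way: of 40 tested members 2 were called higher in NCI-H526, 35 higher in NCI-H1048 and 3 did not pass (median -0.89), and they took 2.00 to 2.01% of the NCI-H526 libraries and 3.34 to 3.66% of the NCI-H1048 libraries. RPS4X (272 and 279.6 in NCI-H526 and 1243 and 1366 in NCI-H1048, log2 difference -2.24) and RPL7A (log2 difference -1.88) differed most, while RPL10 (log2 difference 0.67) and RPS19 (log2 difference 0.51) were higher in NCI-H526. Ribosomal protein genes share sequence with many processed pseudogenes, so single values are uncertain.

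Neuroendocrine genes, which mark other SCLC subtypes, were higher in NCI-H526. In this list, of 17 tested members 13 were called higher in NCI-H526, 4 higher in NCI-H1048 and 0 did not pass (median 2.54), with 12 at least 2-fold higher in NCI-H526 and 1 in NCI-H1048. The secretory granule genes CHGA (75.9 and 81.3 in NCI-H526 and 0.0125 and 0 in NCI-H1048), CHGB (111 and 112 in NCI-H526 and 0.351 and 0.358 in NCI-H1048) and PCSK1 (12.8 and 13.8 in NCI-H526 and 0 and 0 in NCI-H1048) were present in NCI-H526 and at or near 0 in NCI-H1048. Synaptophysin (SYP) was 106 and 107 in NCI-H526 and 1.7 and 1.47 in NCI-H1048 (log2 difference 5.69 ± 0.086 SE, adjusted p = 4.6e-10). INSM1, a zinc finger factor of neuroendocrine cells, was 159 and 158 in NCI-H526 and 6.4 and 6.25 in NCI-H1048 (log2 difference 4.54 ± 0.056 SE, adjusted p = 2.2e-10). SEZ6 (103 and 104 in NCI-H526 and 0.65 and 0.416 in NCI-H1048), SCG3 (59.8 and 64.1 in NCI-H526 and 0.578 and 0.552 in NCI-H1048), BEX1 (log2 difference 3.45) and the Notch ligand DLL3 (25.3 and 25.6 in NCI-H526 and 3.8 and 4.1 in NCI-H1048, log2 difference 2.54) were also higher in NCI-H526.

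The markers were not uniform, however. NCAM1 (252 and 259.8 in NCI-H526 and 291 and 280.3 in NCI-H1048, log2 difference -0.16 ± 0.042 SE), UCHL1 (477 and 478 in NCI-H526 and 683 and 702 in NCI-H1048, log2 difference -0.54) and the neuronal enolase ENO2 (129 and 133 in NCI-H526 and 229.5 and 223 in NCI-H1048, log2 difference -0.79) were expressed in both lines and somewhat higher in NCI-H1048. NKX2-1, the lung and thyroid lineage factor, was listed at 0 in both NCI-H526 libraries and was 19.1 and 18.4 in NCI-H1048. GRP, ELAVL4, STMN2 and DCX were under 0.3 on average in each line. REST, the repressor of neuronal genes, was higher in NCI-H1048 (26.7 and 27.9 in NCI-H526 and 116 and 119 in NCI-H1048, log2 difference -2.09 ± 0.050 SE). ACTL6B, the neuronal subunit of the mSWI/SNF complex, was 28.2 and 27.3 in NCI-H526 and 0.025 and 0 in NCI-H1048.

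YAP genes differed the other way. YAP1 was 2.14 and 2.4 in NCI-H526 and 82.2 and 79.6 in NCI-H1048 (log2 difference -4.88 ± 0.084 SE, adjusted p = 8.2e-10), and its relative WWTR1, which encodes TAZ, was 1.59 and 1.3 in NCI-H526 and 108 and 109 in NCI-H1048 (log2 difference -5.81 ± 0.095 SE, adjusted p = 6.1e-10). Of their DNA-binding partners, TEAD2 was near 0 in NCI-H526 (0.0541 and 0.0728) and 157 and 147 in NCI-H1048, while TEAD1 was higher in NCI-H526 (148 and 149 in NCI-H526 and 95.7 and 90.8 in NCI-H1048, log2 difference 0.67), TEAD3 was higher in NCI-H1048 (log2 difference -0.54) and TEAD4 did not pass (27 and 28.2 in NCI-H526 and 28.7 and 25.6 in NCI-H1048, log2 difference 0.03 ± 0.074 SE). In the whole list, of 16 tested members 2 were called higher in NCI-H526, 13 higher in NCI-H1048 and 1 did not pass (median -2.03), with 10 at least 2-fold higher in NCI-H1048 and 0 in NCI-H526. Known YAP targets ranged widely: CCN1 (0.46 and 0.655 in NCI-H526 and 12.6 and 12.1 in NCI-H1048, log2 difference -3.61), AJUBA (log2 difference -2.57) and AMOTL2 (log2 difference -1.96) were higher in NCI-H1048, CCN2 was low in both lines (0.541 and 0.655 in NCI-H526 and 1.6 and 1.49 in NCI-H1048), and ANKRD1 and AXL averaged under 0.3 in each.

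Mesenchymal genes were also more often higher in NCI-H1048. Of 17 tested members 6 were called higher in NCI-H526 and 11 in NCI-H1048 (median -2.57, 4 and 10 by at least 2-fold). Fibronectin (FN1) was 1.05 and 1.15 in NCI-H526 and 209 and 207 in NCI-H1048 (log2 difference -7.02 ± 0.074 SE, adjusted p = 1.2e-10). TWIST1, a factor of mesenchymal transition, was listed at 0 in both NCI-H526 libraries and was 68.9 and 68.6 in NCI-H1048. SNAI2 (22 and 19.5 in NCI-H1048 and 0.027 and 0.0728 in NCI-H526), ZEB2 (26.2 and 26.2 in NCI-H1048 and 3.84 and 3.28 in NCI-H526) and the collagens COL6A1 (69.6 and 62.2 in NCI-H1048 and 1.51 and 1.09 in NCI-H526) and COL1A1 (39.8 and 35.7 in NCI-H1048 and 0.811 and 0.679 in NCI-H526) were also NCI-H1048 genes. SNAI1 was the exception among the transition factors (4.08 and 4.41 in NCI-H526 and 0.924 and 1.16 in NCI-H1048, log2 difference 1.63), and the matrix genes DCN (8.08 and 8.44 in NCI-H526 and 0.554 and 0.396 in NCI-H1048) and SPARC (5.57 and 6.45 in NCI-H526 and 0.325 and 0.476 in NCI-H1048) and the cadherin CDH2 (69.6 and 66.5 in NCI-H526 and 35.9 and 39.4 in NCI-H1048, log2 difference 0.85) were higher in NCI-H526. The list of fibroblast markers has 10 genes, of which 4 were tested, with 1 (DCN) higher in NCI-H526 and 3 (COL1A1, PDGFRA and THY1) higher in NCI-H1048, and its summed level was 30.8 to 31.1 in NCI-H526 and 121 to 123 in NCI-H1048. PDGFRA was 0.856 and 0.483 in NCI-H526 and 51.6 and 55.1 in NCI-H1048 and PDGFRB was 0 and 0 in NCI-H526 and 1.75 and 1.49 in NCI-H1048. FAP and POSTN were listed at 0 in both NCI-H526 libraries, and LUM, FAP and POSTN averaged under 0.4 in each line. The part of fibroblast marker levels in the mesenchymal difference was not tested.

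NCI-H1048 nevertheless kept epithelial genes. EPCAM was 429.7 and 441 in NCI-H526 and 152 and 157 in NCI-H1048 (log2 difference 1.49 ± 0.041 SE), and the epithelial factor GRHL2 did not pass (87.7 and 89.3 in NCI-H526 and 89.1 and 87.5 in NCI-H1048, log2 difference 0.00 ± 0.043 SE). E-cadherin (CDH1) was 433 and 454 in NCI-H526 and 35.4 and 36.4 in NCI-H1048 (log2 difference 3.61 ± 0.044 SE, adjusted p = 2.1e-10), CLDN4 was 53.1 and 54 in NCI-H526 and 3.48 and 3.89 in NCI-H1048 (log2 difference 3.69 ± 0.084 SE, adjusted p = 2.9e-09) and OVOL1 was 45.7 and 46.2 in NCI-H526 and 4.12 and 4.34 in NCI-H1048 (log2 difference 3.3 ± 0.078 SE, adjusted p = 3.6e-09). The tight junction gene CLDN1 was the reverse, with 3.25 and 3.35 in NCI-H526 and 65.6 and 66.4 in NCI-H1048 (log2 difference -4.13 ± 0.075 SE, adjusted p = 1.0e-09). In all, of 30 tested members 15 were called higher in NCI-H526, 12 higher in NCI-H1048 and 3 did not pass (median 0.25).

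The lines expressed different keratins. Per kilobase of transcript, KRT8 was 157 in NCI-H526 and 23.2 in NCI-H1048, and KRT18, its usual partner, 141 and 77.6. KRT7 was 0 in NCI-H526 and 249 per kilobase in NCI-H1048, the highest of the 3 in that line. KRT15 (83.3 and 76.2 in NCI-H1048 and 0.487 and 0.571 in NCI-H526) was likewise an NCI-H1048 gene, KRT19 was higher in NCI-H526 (53.7 and 55 in NCI-H526 and 14.4 and 12.4 in NCI-H1048, log2 difference 1.98), and the basal keratins KRT5 and KRT14 averaged 1.97 and 0.0547 in NCI-H1048 and 0 in NCI-H526.

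Receptor tyrosine kinases were more often higher in NCI-H1048: of 37 tested members 7 were called higher in NCI-H526, 28 higher in NCI-H1048 and 2 did not pass (median -0.96), with 5 at least 2-fold higher in NCI-H526 and 18 in NCI-H1048. Besides EGFR, the NCI-H1048 genes included the ephrin receptors EPHA3 (150.2 and 158 in NCI-H1048 and 0.115 and 0.0729 in NCI-H526) and EPHB4 (121 and 105 in NCI-H1048 and 0.585 and 0.784 in NCI-H526), RET (33.5 and 30.6 in NCI-H1048 and 0 and 0.097 in NCI-H526), PDGFRA (51.6 and 55.1 in NCI-H1048 and 0.856 and 0.483 in NCI-H526), FGFR1 (69.3 and 61.2 in NCI-H1048 and 3.56 and 3.47 in NCI-H526, log2 difference -4.03) and FGFR2 (96.5 and 90.2 in NCI-H1048 and 9.93 and 10.2 in NCI-H526, log2 difference -3.15). In NCI-H526 the higher ones were FLT1 (70.2 and 71.6 in NCI-H526 and 0.993 and 0.572 in NCI-H1048, log2 difference 5.82) and IGF1R, a kinase on which SCLC-P lines are known to depend (154 and 154 in NCI-H526 and 24.3 and 21.9 in NCI-H1048, log2 difference 2.71 ± 0.058 SE). MET was close in level (124 and 125 in NCI-H526 and 153 and 146 in NCI-H1048, log2 difference -0.26), and RYK and FLT3 did not pass (log2 difference 0.09 and -0.01).

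Among ligands of these receptors, those of the epidermal growth factor family were divided between the lines. TGFA (80.9 and 80.4 in NCI-H526 and 4.67 and 3.93 in NCI-H1048, log2 difference 4.08) and HBEGF (43.9 and 45.8 in NCI-H526 and 3.62 and 3.72 in NCI-H1048, log2 difference 3.44), both ligands of EGFR, were higher in NCI-H526, where EGFR itself was at or near 0. EGF was higher in NCI-H1048 (7.0 and 6.67 in NCI-H1048 and 0.218 and 0.122 in NCI-H526). KITLG, the ligand of KIT, was higher in NCI-H526 (79.8 and 81.5 in NCI-H526 and 24.7 and 25.5 in NCI-H1048, log2 difference 1.66). Insulin-like growth factor binding proteins were NCI-H1048 genes, with IGFBP2 at 284 and 262 in NCI-H1048 and 15.8 and 17 in NCI-H526 (log2 difference -4.02), IGFBP5 at 113 and 104 in NCI-H1048 and 0.189 and 0.0485 in NCI-H526 and IGFBP3 at 43.3 and 42.4 in NCI-H1048 and 0 and 0 in NCI-H526, and IGF1 averaged under 0.4 in both lines. Over the list, of 25 tested members 7 were called higher in NCI-H526, 16 higher in NCI-H1048 and 2 did not pass (median -1.09).

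Genes that respond to growth factor signaling were also higher in NCI-H1048. EGR1 was 2.27 and 2.38 in NCI-H526 and 239.9 and 199.5 in NCI-H1048 (log2 difference -6.28 ± 0.092 SE, adjusted p = 4.2e-10), and FOS was 4.22 and 4.03 in NCI-H526 and 32.7 and 34.5 in NCI-H1048 (log2 difference -2.88 ± 0.085 SE, adjusted p = 1.1e-08). The feedback and target genes of the ERK pathway ETV4 (log2 difference -3.82), ETV5 (log2 difference -3.88), DUSP4 (log2 difference -2.88), DUSP6 (log2 difference -1.59), SPRED1 (log2 difference -4.06) and SPRY4 (4.85 and 4.44 in NCI-H1048 and 0.0542 and 0.073 in NCI-H526) had the same direction. JUN (43 and 43.4 in NCI-H526 and 17 and 15.2 in NCI-H1048, log2 difference 1.4), KLF4 (log2 difference 1.42) and DUSP5 (log2 difference 1.9) were higher in NCI-H526, and FOSB, EGR3 and SPRY1 did not pass (0.17, log2 difference -0.05 and -0.06). IER3 was 6.93 and 6.91 in NCI-H526 and 0 in both NCI-H1048 libraries, and it lies in the chromosome 6 stretch treated next. In the list as a whole, of 24 tested members 6 were called higher in NCI-H526, 15 higher in NCI-H1048 and 3 did not pass (median -1.03).

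HLA-C and HLA-B, classical HLA class I genes, were far lower in NCI-H1048, but the list of class I presentation genes was divided. Of 18 tested members 7 were called higher in NCI-H526, 6 higher in NCI-H1048 and 5 did not pass (median 0.12). By at least 2-fold the counts were 4 and 2. HLA-C was 365 and 359 in NCI-H526 and 0.0504 and 0.0603 in NCI-H1048, and HLA-B was 197 and 199 in NCI-H526 and 20.4 and 9.7 in NCI-H1048 (log2 difference 3.77 ± 0.27 SE, adjusted p = 2.1e-06). HLA-F was the reverse (0 and 0 in NCI-H526 and 7.09 and 8.58 in NCI-H1048), and HLA-E did not pass, with libraries that overlapped (8.39 and 10.9 in NCI-H526 and 21.3 and 9.1 in NCI-H1048). The NCI-H1048 libraries differed from each other by more than usual for HLA-B and HLA-E. The peptide transporter genes TAP1 and TAP2 were near equal (log2 difference 0.15, which did not pass, and 0.34), the HLA class I regulator NLRC5 was higher in NCI-H1048 (8.98 and 9.48 in NCI-H526 and 15.9 and 15.6 in NCI-H1048, log2 difference -0.74) and IRF1 did not pass (log2 difference 0.15).

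These HLA values may carry a limit of the annotation, which was not tested. Between 29 and 34 Mb of chromosome 6, where the genome assembly also holds alternative haplotypes with near-identical gene copies, 94 protein-coding genes were tested, and 15 were at least 8-fold higher in NCI-H526 and 4 in NCI-H1048, together 20.2% against 8.64% of all tested genes. The 15 included genes used by most cells, such as the splicing helicase DDX39B (424 and 418 in NCI-H526 and 4.93 and 5.15 in NCI-H1048), PRRC2A (406 and 415 in NCI-H526 and 14.3 and 11.5 in NCI-H1048) and TCF19 (65.1 and 67 in NCI-H526 and 0 and 0.0478 in NCI-H1048). Of the 15, 6 were also under 1 in MM1.S. The share under 1 among genes elsewhere was not counted, and the count was not made in NCI-H929. The 6 can therefore not be read as a trait of this stretch. HSPA1A (136 and 151 in NCI-H526 and 0.119 and 0 in NCI-H1048) lies there too. Whether the assignment of reads among haplotype copies had a part in the HLA, HSPA1A, IER3, TAPBP or ITPR3 values was not tested.

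Interferon-stimulated genes were more often higher in NCI-H1048: of 28 tested members 6 were called higher in NCI-H526, 19 higher in NCI-H1048 and 3 did not pass (median -1.33), 3 and 15 by at least 2-fold. The antiviral membrane genes IFITM1 (17.6 and 20.5 in NCI-H1048 and 0 and 0 in NCI-H526) and IFITM3 (74.2 and 74.7 in NCI-H1048 and 2.27 and 2.52 in NCI-H526, log2 difference -4.7) and BST2 (5.65 and 6.72 in NCI-H1048 and 0.027 and 0.0243 in NCI-H526) were among those higher in NCI-H1048, as were SAMD9L (6.4 and 7.18 in NCI-H1048 and 0.163 and 0.0487 in NCI-H526) and MX1 (45.1 and 41.7 in NCI-H1048 and 7.28 and 6.23 in NCI-H526, log2 difference -2.6). OAS1 (11.4 and 10.2 in NCI-H526 and 0.128 and 0.12 in NCI-H1048) and MX2 (36.9 and 39.4 in NCI-H526 and 2.31 and 1.98 in NCI-H1048, log2 difference 3.87) and the RNA sensor RIGI (112 and 119 in NCI-H526 and 36.2 and 40.3 in NCI-H1048, log2 difference 1.58) were higher in NCI-H526 instead, so MX1 and MX2 were divided between the lines. STAT2 was higher in NCI-H1048 (log2 difference -1.33), and IFIT3, IFIT5 and SAMD9 did not pass. Of the NF-kB list, 4 of 11 tested members were higher in NCI-H526 and 5 in NCI-H1048, and the cytokines TNF, IL6, CXCL8 and IL1B averaged under 0.3 in each line.

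WNT genes also leaned to NCI-H1048: of 29 tested members 9 were called higher in NCI-H526, 19 higher in NCI-H1048 and 1 did not pass (median -1.27), with 5 at least 2-fold higher in NCI-H526 and 16 in NCI-H1048. The nuclear factors LEF1 (21.6 and 20 in NCI-H1048 and 1.11 and 1.16 in NCI-H526, log2 difference -3.7), TCF7L2 (31.9 and 28.9 in NCI-H1048 and 2.33 and 2.04 in NCI-H526, log2 difference -3.53) and TCF7L1 (27 and 20.3 in NCI-H1048 and 0.259 and 0.185 in NCI-H526), the target AXIN2 (6.84 and 6.39 in NCI-H1048 and 0.216 and 0.218 in NCI-H526), the ligand WNT5A (17.3 and 16.9 in NCI-H1048 and 0.298 and 0.194 in NCI-H526) and the secreted inhibitor SFRP1 (108 and 109 in NCI-H1048 and 0 and 0.0728 in NCI-H526) were low in NCI-H526. RNF43, which removes WNT receptors from the membrane, was higher in NCI-H526 (29.3 and 31.6 in NCI-H526 and 3.83 and 2.6 in NCI-H1048, log2 difference 3.08), as were the receptor FZD5 (72.9 and 74 in NCI-H526 and 17 and 16.5 in NCI-H1048, log2 difference 2.1) and the ligands WNT5B (log2 difference 2.11) and WNT7B (log2 difference 1.9).

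Notch genes were divided. The receptors NOTCH1 (54.9 and 54.9 in NCI-H526 and 140.1 and 124 in NCI-H1048, log2 difference -1.25), NOTCH2 (log2 difference -2.03) and NOTCH3 (log2 difference -2.84), the ligand JAG1 (7.38 and 7.91 in NCI-H526 and 81.4 and 74.4 in NCI-H1048, log2 difference -3.27) and the target HES1 (6.59 and 6.57 in NCI-H1048 and 0.703 and 0.849 in NCI-H526, log2 difference -2.48) were higher in NCI-H1048. The inhibitory ligand DLL3, the Notch antagonist HES6 (181 and 178 in NCI-H526 and 42.7 and 38.8 in NCI-H1048, log2 difference 2.13), the glycosyltransferases MFNG (49.5 and 51.7 in NCI-H526 and 1.02 and 1.07 in NCI-H1048, log2 difference 5.04) and LFNG (log2 difference 1.5) and the ligands DLL4, JAG2 and DLL1 were higher in NCI-H526. The list held 9 calls in each direction among 18 tested genes (median -0.21).

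Lineage factors that pattern tissues differed by large steps, and several were at or near 0 in 1 of the lines. POU4F1, a sensory neuron factor, was 69.8 and 74.5 in NCI-H526 and 0.025 and 0 in NCI-H1048, PAX5, the B cell factor, was 283 and 283 in NCI-H526 and 6.02 and 5.77 in NCI-H1048 (log2 difference 5.47 ± 0.053 SE, adjusted p = 9.1e-11), and TBX3 was 269 and 274 in NCI-H526 and 7.62 and 7.7 in NCI-H1048 (log2 difference 5.06 ± 0.050 SE, adjusted p = 9.1e-11). Higher in NCI-H1048 were TFAP2B (676 and 639 in NCI-H1048 and 14.8 and 17.8 in NCI-H526, log2 difference -5.3 ± 0.078 SE), DLX5 (326 and 319 in NCI-H1048 and 1.03 and 0.922 in NCI-H526, log2 difference -7.78), PAX6 (91.1 and 94.2 in NCI-H1048 and 1.98 and 2.05 in NCI-H526, log2 difference -5.21), and, at or near 0 in NCI-H526, OTX2 (86.2 and 86.5 in NCI-H1048) and ISL1 (47 and 48.5). Among endodermal factors, of 21 tested members 13 were called higher in NCI-H526, 7 higher in NCI-H1048 and 1 did not pass. HNF4G (78 and 84.2 in NCI-H526 and 7.95 and 8.03 in NCI-H1048, log2 difference 3.26) and GATA2 (103 and 105 in NCI-H526 and 15.8 and 14.8 in NCI-H1048, log2 difference 2.72) were higher in NCI-H526, GATA6 in NCI-H1048 (14.6 and 14.9 in NCI-H1048 and 2.38 and 2.4 in NCI-H526, log2 difference -2.4), and FOXA1 (162 and 169.6 in NCI-H526 and 104 and 107 in NCI-H1048, log2 difference 0.65), PROX1 (296 and 294 in NCI-H526 and 166 and 159 in NCI-H1048, log2 difference 0.85) and ONECUT2 (180.2 and 174 in NCI-H526 and 133 and 129 in NCI-H1048, log2 difference 0.43) were shared. FOXA2 did not pass (5.27 and 5.26 in NCI-H526 and 5.07 and 5.32 in NCI-H1048).

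All 7 tested NKX genes were called higher in NCI-H1048 (6 by at least 2-fold), and NKX2-1, NKX2-2 (10.5 and 10.3 in NCI-H1048 and 0 and 0.0728 in NCI-H526) and NKX2-5 (17.3 and 17 in NCI-H1048 and 0.027 and 0 in NCI-H526) were at or near 0 in NCI-H526. HOX genes differed less: of 35 tested members 23 were called higher in NCI-H526, 9 higher in NCI-H1048 and 3 did not pass (median 0.45), with 10 and 3 by at least 2-fold. HOXA10 (99.8 and 104 in NCI-H526 and 9.14 and 10.3 in NCI-H1048, log2 difference 3.32) and HOXD1 (13.4 and 12.4 in NCI-H526 and 0.35 and 0.357 in NCI-H1048) led in NCI-H526 and HOXA7 (19.3 and 19.3 in NCI-H1048 and 0.784 and 0.582 in NCI-H526, log2 difference -4.07) in NCI-H1048. Smaller differences were those of HOXC10 (116 and 115 in NCI-H526 and 101 and 96.8 in NCI-H1048, log2 difference 0.22), HOXA9 (71.4 and 72.2 in NCI-H526 and 54.6 and 50.4 in NCI-H1048, log2 difference 0.45) and HOXD10 (38.3 and 40.4 in NCI-H526 and 33.8 and 30.5 in NCI-H1048, log2 difference 0.29). The glucocorticoid receptor gene NR3C1 was 27 and 27 in NCI-H526 and 1.95 and 2.35 in NCI-H1048 (log2 difference 3.38 ± 0.11 SE, adjusted p = 1.7e-08).

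Tumour suppressor and cell cycle genes mostly differed by less than 2-fold: of 27 tested members 9 were called higher in NCI-H526, 16 higher in NCI-H1048 and 2 did not pass, with 2 and 3 by at least 2-fold. RB1, which most SCLC tumours lose, was 54.5 and 59 in NCI-H526 and 10 and 11.6 in NCI-H1048 (log2 difference 2.34 ± 0.084 SE, adjusted p = 3.4e-08), so neither line was at 0 and RNA does not tell whether the protein was intact. Within 2 Mb of RB1 on chromosome 13, 22 further genes were tested, 18 were called higher in NCI-H526, 2 higher in NCI-H1048 and 2 did not pass, with a median of 0.89. CDKN2C (27.1 and 26.8 in NCI-H526 and 95 and 94.5 in NCI-H1048, log2 difference -1.8), a kinase inhibitor of G1, and CDKN1C (log2 difference -1.69) were higher in NCI-H1048, E2F1 (118 and 119 in NCI-H526 and 43.2 and 38 in NCI-H1048, log2 difference 1.54) in NCI-H526, and CCND2 was near 0 in both. CDKN2A was 97.4 and 95.9 in NCI-H526 and 117 and 113 in NCI-H1048 (log2 difference -0.25).

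Proliferation genes were balanced: of 32 tested members 13 were called higher in NCI-H526, 13 higher in NCI-H1048 and 6 did not pass (median 0.00). Members higher in NCI-H526 included GINS2 (log2 difference 1.57), MCM2 (449 and 457 in NCI-H526 and 185 and 177 in NCI-H1048, log2 difference 1.32) and POLA1 (log2 difference 0.82), and those higher in NCI-H1048 included CENPF (399 and 408 in NCI-H526 and 1937 and 2022 in NCI-H1048, log2 difference -2.29), HMMR (log2 difference -1.46), CENPE (log2 difference -1.1) and CCNB1 (log2 difference -1.07). TOP2A, AURKA and CCNB2 did not pass. CENPF lies in a stretch of chromosome 1 where most genes were higher in NCI-H1048 (below). Targets of p53 were more often higher in NCI-H1048, and of 25 tested members 5 were called higher in NCI-H526, 18 higher in NCI-H1048 and 2 did not pass (median -0.63), for example CCNG1 (34.8 and 34.1 in NCI-H526 and 118 and 130.2 in NCI-H1048, log2 difference -1.83) and XPC (19 and 18.7 in NCI-H526 and 54.6 and 55.6 in NCI-H1048, log2 difference -1.52), while CDKN1A was slightly higher in NCI-H526 (log2 difference 0.32).

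Because the study degrades mSWI/SNF ATPases, their levels before treatment are given here. SMARCA4 did not pass (364 and 369.5 in NCI-H526 and 409.8 and 380.2 in NCI-H1048, log2 difference -0.11 ± 0.047 SE, adjusted p = 0.065), SMARCA2 was 89.2 and 92.3 in NCI-H526 and 103 and 105 in NCI-H1048 (log2 difference -0.19 ± 0.043 SE, adjusted p = 0.003) and PBRM1 was 269.8 and 274 in NCI-H526 and 333 and 313 in NCI-H1048 (log2 difference -0.25 ± 0.044 SE, adjusted p = 0.0008). The mean of each of these 3 AU-15330 targets was slightly higher in NCI-H1048. Over the whole complex, of 28 tested members 8 were called higher in NCI-H526, 11 higher in NCI-H1048 and 9 did not pass (median -0.11). Apart from ACTL6B, the differences of at least 2-fold were those of SMARCD3 (34.7 and 32.4 in NCI-H1048 and 5.44 and 4.56 in NCI-H526, log2 difference -2.63), DPF1 (23 and 19 in NCI-H1048 and 7.58 and 8.37 in NCI-H526, log2 difference -1.34) and DPF3 (1.77 and 1.9 in NCI-H1048 and 0.784 and 0.461 in NCI-H526, log2 difference -1.07), higher in NCI-H1048, and SS18L1 (105 and 103 in NCI-H526 and 52 and 45.7 in NCI-H1048, log2 difference 1.09) and DPF2 (112 and 109.7 in NCI-H526 and 54.4 and 54.9 in NCI-H1048, log2 difference 1.02), higher in NCI-H526.

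Among genes of drug response, the checkpoint kinase CHEK1 was higher in NCI-H526 (259 and 266 in NCI-H526 and 54.6 and 58.8 in NCI-H1048, log2 difference 2.2), as was the damage kinase ATM (314 and 309 in NCI-H526 and 109 and 103 in NCI-H1048, log2 difference 1.55). PARP1, the target of PARP inhibitors, was higher in NCI-H1048 (991 and 1002 in NCI-H1048 and 257 and 259.5 in NCI-H526, log2 difference -1.95). SLFN11, a marker of sensitivity to DNA-damaging drugs, was expressed in both (77.8 and 79.6 in NCI-H526 and 92.9 and 98.6 in NCI-H1048, log2 difference -0.28), and the apoptosis regulator BCL2 did not pass (138 and 139 in NCI-H526 and 143 and 140.1 in NCI-H1048, log2 difference -0.03 ± 0.040 SE). In the BCL2 family, in which 4 of 15 tested genes were called higher in NCI-H526 and 8 in NCI-H1048, 0 genes were at least 2-fold higher in NCI-H526 and 4 in NCI-H1048, namely BOK (log2 difference -1.93), BBC3 (log2 difference -1.76), HRK (log2 difference -1.74) and BAK1 (log2 difference -1.45).

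Surface proteins against which drugs have been made were divided. DLL3 and SEZ6 (above) were higher in NCI-H526 with NECTIN1 (201 and 203 in NCI-H526 and 47.9 and 43.7 in NCI-H1048, log2 difference 2.13). CD44, the hyaluronan receptor, was 1.81 and 1.62 in NCI-H526 and 310.2 and 309 in NCI-H1048 (log2 difference -7.13 ± 0.068 SE, adjusted p = 9.1e-11). B4GALNT1, which encodes a synthase of the ganglioside GD2, was 17.6 and 16.7 in NCI-H526 and 219 and 205 in NCI-H1048 (log2 difference -3.59 ± 0.054 SE, adjusted p = 4.6e-10). ERBB2 (48.5 and 44.7 in NCI-H1048 and 15.3 and 14 in NCI-H526, log2 difference -1.64) and GPC3 (24 and 23.8 in NCI-H1048 and 0.216 and 0.146 in NCI-H526) were also NCI-H1048 genes, and CD276 and SSTR2 did not pass. Over the list, of 27 tested members 9 were called higher in NCI-H526, 15 higher in NCI-H1048 and 3 did not pass (median -0.26).

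**Figure D5:**
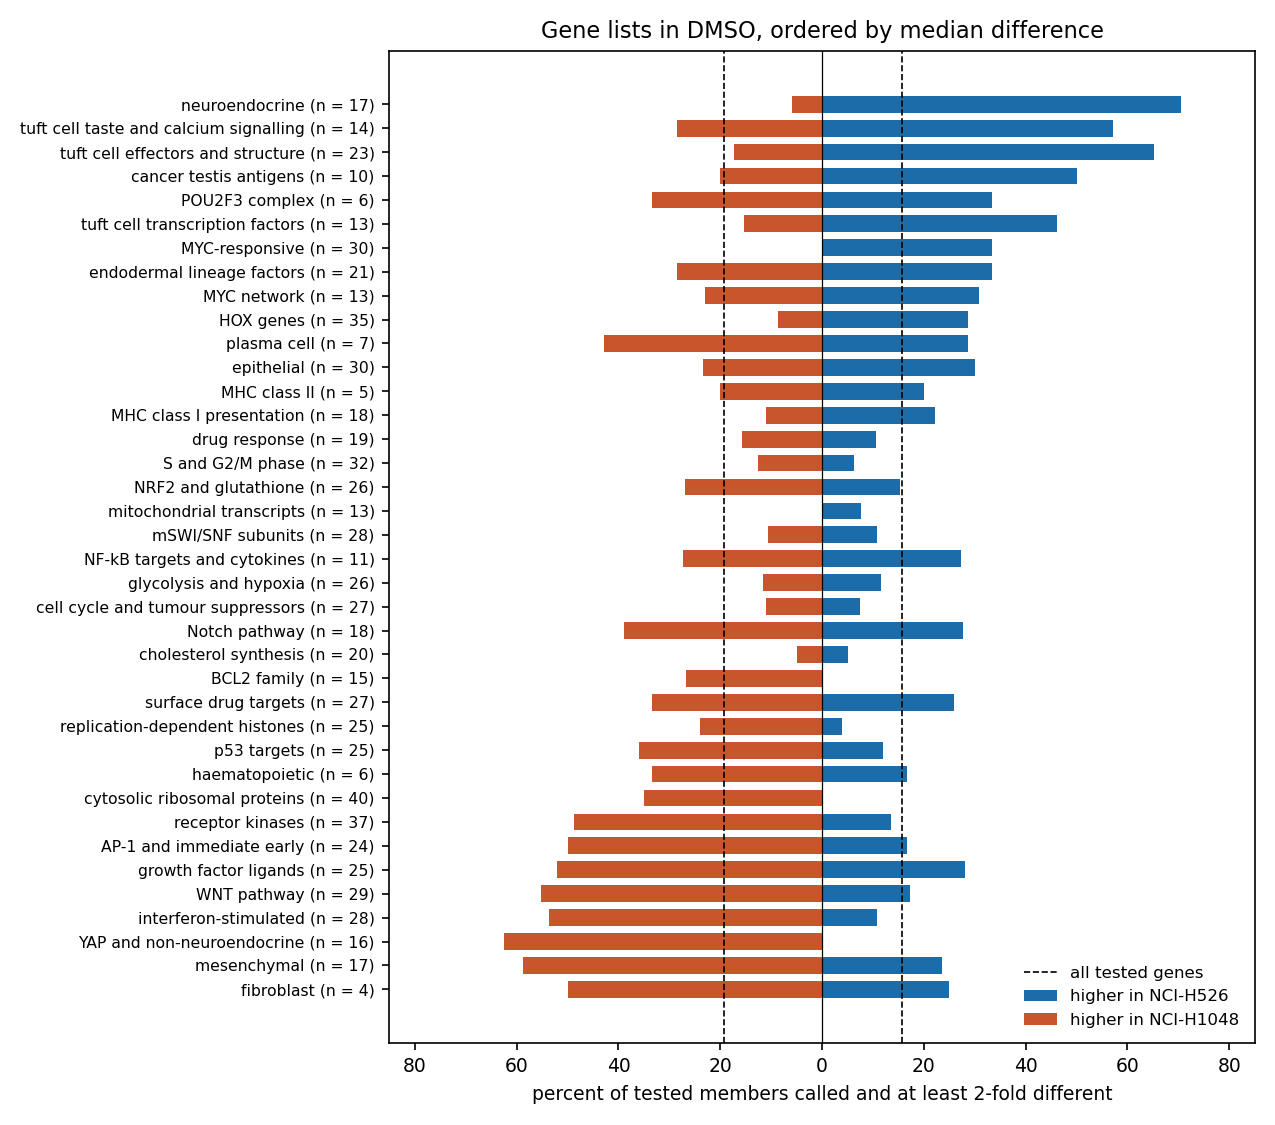
Percent of tested members of each of 38 gene lists that were called at least 2-fold higher in NCI-H526 (bars to the right) or in NCI-H1048 (bars to the left), with dashed lines at the shares over all tested genes (15.8% and 19.3%). The tuft taste, tuft effector and neuroendocrine lists extend farthest to the NCI-H526 side, with 8 of 14, 15 of 23 and 12 of 17, and the YAP, mesenchymal, interferon and WNT lists extend to the NCI-H1048 side, with 10 of 16, 10 of 17, 15 of 28 and 16 of 29.

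Some genes were present in 1 line and near absent in the other. At levels of at least 20 in both libraries of one line and at most 0.5 in both libraries of the other, 116 genes were found for NCI-H526, of which 113 are protein-coding and 12 were 0 in both NCI-H1048 libraries, and 91 for NCI-H1048, all protein-coding, of which 14 were 0 in both NCI-H526 libraries. Besides VIL1, HLA-C, NMNAT2 and SRL, those of NCI-H526 with high levels included AMER2 (201 and 203), NEFH (169 and 175), CLDN11 (163 and 166), RIMBP2 (155 and 154) and MAP7D2 (129 and 133). SYT6 was 120.3 and 121 in NCI-H526 and 0 in both NCI-H1048 libraries. For NCI-H1048, besides VIM, KRT7 and EGFR, they included COL15A1 (405 and 385), LOX (302 and 299), which crosslinks collagen, EPB41L2 (209 and 212), the proteoglycan VCAN (195 and 189) and the heparan sulfate proteoglycan GPC4 (145 and 139), each under 0.5 in both NCI-H526 libraries. Of the 116 NCI-H526 genes, 4 lie in the 29 to 34 Mb stretch of chromosome 6.

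Differences also ran in blocks of neighbouring genes. Over windows of 15 consecutive tested autosomal genes, the median difference lay between -1.47 and 1.34 in the middle 98% of 12883 windows. The highest window was chr6:30743199-31660778 (hg38), with a median of 2.51, which is the HLA stretch with the possible limit given above. It was followed by chr13:30456704-36297840 with 2.05, chr13:39009865-41961120 with 1.98 and chr11:113409605-117232525 with 1.67. In the first window on chromosome 13, 13 of 15 genes were called higher in NCI-H526, among them HSPH1 (643 and 663 in NCI-H526 and 130.4 and 140.1 in NCI-H1048, log2 difference 2.27), RFC3 (199.6 and 211 in NCI-H526 and 47.3 and 50.8 in NCI-H1048, log2 difference 2.05), NBEA (log2 difference 2.29), PDS5B (log2 difference 1.67) and the tuft cell gene DCLK1 (log2 difference 2.92), and DCLK1 thus had the direction of most of its neighbours. In the other window on chromosome 13, KBTBD6 (214 and 213 in NCI-H526 and 22.1 and 20.3 in NCI-H1048, log2 difference 3.3), NAA16 (log2 difference 2.64), PROSER1 (log2 difference 2.3) and ELF1 (log2 difference 2.14) were higher and FOXO1 (0.487 and 0.80 in NCI-H526 and 7.34 and 8.74 in NCI-H1048) was lower in NCI-H526. The chromosome 11 window held USP28 (log2 difference 1.9), REXO2 (208 and 209 in NCI-H526 and 24.7 and 24 in NCI-H1048, log2 difference 3.07) and SIK3 (log2 difference 1.93).

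The lowest windows were 3 on chromosome 1 and 1 on chromosome 7. They were chr1:193121983-200915742 with a median of -2.32, chr1:236142505-242524697 with -2.25, chr1:212363928-215237090 with -2.16 and chr7:142111718-148420998 with -1.91. In each chromosome 1 window 14 of 15 genes were called higher in NCI-H1048. The spindle gene ASPM (621 and 614 in NCI-H1048 and 115 and 113 in NCI-H526, log2 difference -2.43), KIF14 (log2 difference -2.09) and CAMSAP2 (log2 difference -2.55) lay in the first, the fumarase gene FH (259.6 and 283 in NCI-H1048 and 55.3 and 57.6 in NCI-H526, log2 difference -2.25), LGALS8 (log2 difference -2.87) and MTR (log2 difference -2.12) in the second, and CENPF, the methyltransferase gene SMYD2 (log2 difference -2.16) and PTPN14 (153 and 137 in NCI-H1048 and 20.5 and 17.3 in NCI-H526, log2 difference -2.91) in the third. The exceptions were CFHR3 (log2 difference 2.82), GPR137B (log2 difference 0.75) and PROX1 (log2 difference 0.85). By whole chromosome, the median was highest on chromosomes 13 (0.83) and 11 (0.49) and lowest on chromosomes 5 (-0.47) and 10 (-0.46). Copy number was not measured, and its part in these blocks was not tested.

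The differences were next set beside those of other libraries of the same lines. In the AU-15330 libraries, 14117 genes were tested, 11119 were called (78.8%, 37.7% higher in NCI-H526 and 41.1% higher in NCI-H1048) and 5266 were called at least 2-fold apart (37.3%, 16.6% and 20.7%). Of genes at least 2-fold higher in NCI-H526 in DMSO, 2103 were tested under AU-15330, 2048 of these were called in the same direction, 1775 also at least 2-fold, and 17 in the opposite direction. For NCI-H1048 the counts were 2643, 2587, 2320 and 13. All 571 and 629 genes at least 8-fold apart in DMSO and tested under AU-15330 were called in the same direction.

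The coactivator and MYC arrangements were present in those libraries as well. Under AU-15330 the log2 differences were 2.45 for POU2AF2, -2.25 for POU2AF3, 7.83 for MYCN and -5.36 for MYC, against 3.24, -4.57, log2 difference 7.97 and -7.47 in DMSO. POU2F3 differed by 2.82 and SYP by 2.46, against 1.18 and 5.69. For YAP1 and EGR1 the values were -4.42 and -6.14, against -4.88 and -6.28. The change of the line difference under AU-15330 was tested in 1 fit of the 8 libraries, which share the DMSO samples, and 4311 of 14547 genes were called (29.6%), 13.9% moved towards NCI-H526 and 15.8% towards NCI-H1048. It was called for POU2F3, POU2AF2, POU2AF3, MYC, SYP and YAP1 and did not pass for MYCN (log2 change -0.14) and EGR1 (log2 change 0.14). Calls in opposite directions with a called change were found for 237 genes.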

How the data were processed

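RNA sequencing libraries (polyadenylated RNA, paired-end reads) were made from NCI-H526, NCI-H1048 and 2 myeloma lines. The authors quantified reads with kallisto against hg38 and used edgeR and limma. Deposited values are a normalized signal, scaled by the authors per library, and are not exact CPM, since library totals range from 0.979 to 1.04 M in the 4 libraries used. Whole reads could not be recovered, so no count model was used and estimated depths are approximate. All 35606 listed genes were read, and 35444 IDs matched GENCODE release 44, which gave positions and transcript lengths (the length of the canonical transcript is used per kilobase).

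Groups came from the sample labels. Log2(value + 0.5) was fitted with limma 3.58.1 in R 4.3.3 (trended variance, two-sided, Benjamini-Hochberg, threshold 0.05) on the 4 DMSO libraries, for genes averaging 1 or more. The same fit was made on the AU-15330 libraries, and the change between arms was the interaction in 1 fit of both. The fit was tested on simulated data. Lists and families were described by counts and medians, with no test. The gene lists and members were chosen with earlier results of these data known. Named genes were all members of the POU2F3, tuft factor, MYC and MYCN neighbour lists and the 3 degrader targets. Others were the 15 highest and 15 lowest genes, the largest differences per list and family, and the highest genes near 0 in the other line. Genes of the named windows were also named. So were the 5 protein-coding genes with the largest changes among those that turned direction under AU-15330. Further list members were named for their known role with their values seen. A few list members are not reported here. Alternatives were a pseudocount of 0.1 or 1, a minimum mean of 5 or no minimum, 3 rescalings, no variance trend, a replicate block, fits of 8 or 16 libraries and leaving out each library, and, chosen after seeing the data, leaving out genes of the HLA stretch.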

Additional observations from a re-analysis of the deposited data

Results flagged for a closer look

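For 5 genes the direction of the line difference turned between DMSO and AU-15330, with a called change in limma. They had the largest changes among the protein-coding genes of the 237 that turned. KCNN3, a calcium-activated potassium channel gene, was 69.2 and 69.6 in NCI-H526 and 12 and 11.8 in NCI-H1048 in DMSO, and 5.22 and 5.52 in NCI-H526 and 8.99 and 10.7 in NCI-H1048 under AU-15330, a log2 change of -3.31. CYP1A1, a cytochrome P450 induced by aryl hydrocarbons, was 3.65 and 3.1 in NCI-H526 and 2.4 and 1.96 in NCI-H1048 in DMSO, and 0.69 and 0.567 in NCI-H526 and 6.92 and 7.04 in NCI-H1048 under AU-15330, a log2 change of -3.26. DNAH5, an axonemal dynein gene, was 1.76 and 2.13 in NCI-H526 and 4.27 and 4.52 in NCI-H1048 in DMSO, and 7.87 and 7.85 in NCI-H526 and 1.3 and 2.03 in NCI-H1048 under AU-15330, a log2 change of 2.97. MYO15B, an unconventional myosin gene, was 37.8 and 37.4 in NCI-H526 and 11.8 and 9.43 in NCI-H1048 in DMSO, and 3.79 and 4.48 in NCI-H526 and 11.3 and 8.68 in NCI-H1048 under AU-15330, a log2 change of -2.95. IL12A, a cytokine subunit gene, was 1.33 and 1.14 in NCI-H526 and 3.9 and 5.2 in NCI-H1048 in DMSO, and 2.48 and 2.1 in NCI-H526 and 0.624 and 0.658 in NCI-H1048 under AU-15330, a log2 change of 2.82. KCNN3 and MYO15B fell below their NCI-H1048 levels in NCI-H526, while CYP1A1, DNAH5 and IL12A moved in opposite directions in the lines. These genes were chosen for the size of the change.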

How the results depend on the processing

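The number of genes called higher in NCI-H526 in DMSO lay between 5082 and 7067 over all alternatives (5246 to 6163 when a library was left out), against 5964, and that higher in NCI-H1048 between 5136 and 7092 (5732 to 6085), against 6170, and each count by direction and size stayed within 1.5 times its value. Each line has 2 libraries, so a line left with 1 library was assumed to vary like the other. The counts of the change under AU-15330 moved more. They were 2018 towards NCI-H526 and 2293 towards NCI-H1048, and when NCI-H526 DMSO replicate 1 or 2 was left out they were 1320 and 1335 towards NCI-H526, and 1508 and 1414 towards NCI-H1048, with ranges of 1320 to 2918 and 1414 to 3184 over the 8 libraries left out in turn. Of 39 list medians, 38 moved by more than the spread between replicates or reversed in some setting. A change of sign from a main median larger than that spread was found for 5. Sign changes of smaller medians are not in this count. Without a filter the epithelial median was -0.0873 and the plasma cell median -0.0816. With a filter at a mean of 5 the glycolysis median was 0.0092 and the NRF2 median 0.45. With quantile normalization the NRF2 and NF-kB medians were 0.0608 and 0.0611. The plasma cell median was -1.21 and -0.88 without NCI-H526 DMSO replicate 1 and 2 and reached 0.43 without NCI-H1048 DMSO replicate 1. Of 598 named genes, 573 kept their call in every setting in which they were tested, 25 lost or gained it in at least 1 and none turned. SMARCA4, SMARCA2, MLX, MXD4, GEN1, ROCK2 and CYP1A1 were among the 25. The deviations of libraries with the same replicate number correlated at 0.045 between the DMSO groups, so these were not taken as paired (NCI-H1048 DMSO gave 0.233 with NCI-H526 AU-15330 and 0.21 with NCI-H1048 AU-15330), and with the replicate block 6017 and 6217 genes were called higher in NCI-H526 and in NCI-H1048. No copy number or protein was measured, and at values under 1 few reads stand behind a value.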

Other observations

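Collagen, laminin, integrin and non-clustered protocadherin genes were mostly higher in NCI-H1048. Of 10 tested cadherin genes 6 were called higher in NCI-H526, 4 by at least 2-fold, and of 8 claudin genes likewise 6 and 4. Over all tested genes 41.5% were called higher in NCI-H526 and 43.0% in NCI-H1048, 15.8% and 19.3% by at least 2-fold. Of 30 tested collagen genes 22 were called higher in NCI-H1048 and 6 in NCI-H526, 21 and 5 by at least 2-fold. COL2A1, the cartilage collagen, was 7.82 and 7.37 in NCI-H526 and 2019 and 1869 in NCI-H1048 (log2 difference -7.91 ± 0.052 SE), and COL6A2 was 0.0811 and 0.121 in NCI-H526 and 81.2 and 79.6 in NCI-H1048. COL11A1 went the other way (335 and 330.2 in NCI-H526 and 1.07 and 1.31 in NCI-H1048, log2 difference 7.62), as did COL14A1 (19.1 and 18.3 in NCI-H526 and 0.15 and 0.208 in NCI-H1048). Of 11 laminin genes 8 were higher in NCI-H1048, led by LAMA1 (2.11 and 2.72 in NCI-H526 and 116 and 106 in NCI-H1048, log2 difference -5.26), and 2 in NCI-H526, among them LAMA2 (10.5 and 9.63 in NCI-H526 and 0.225 and 0.268 in NCI-H1048). Of 17 integrin genes 12 were higher in NCI-H1048, among them ITGB4 (0.92 and 1.26 in NCI-H526 and 43 and 37 in NCI-H1048, log2 difference -4.68) and ITGB5 (2.3 and 2.64 in NCI-H526 and 64.2 and 59.7 in NCI-H1048, log2 difference -4.39), and 3 in NCI-H526. Protocadherins outside the clusters were likewise NCI-H1048 genes in 6 of 8 cases, PCDH19 (0.216 and 0.267 in NCI-H526 and 81.5 and 78.4 in NCI-H1048) first. Synaptotagmins, the calcium sensors of vesicle release, leaned to NCI-H526 (8 of 12, 7 by at least 2-fold), with SYT7 at 89.9 and 96.7 in NCI-H526 and 1.12 and 0.981 in NCI-H1048 (log2 difference 5.92) and SYT11 at 139.8 and 144 in NCI-H526 and 2.37 and 2.29 in NCI-H1048 (log2 difference 5.65). Of 54 potassium channel genes 33 were higher in NCI-H526, among them KCNMA1 (37 and 37.4 in NCI-H526 and 0.15 and 0.0595 in NCI-H1048), and 16 in NCI-H1048, among them KCNQ3 (2.6 and 3.0 in NCI-H526 and 196 and 185 in NCI-H1048, log2 difference -5.86). By at least 2-fold the potassium channel counts were 23 and 14, and by at least 8-fold they were 7 and 7.

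Metabolic lists were closer to balance, with single genes far apart. In glycolysis and hypoxia, of 26 tested members 11 were called higher in NCI-H526, 13 higher in NCI-H1048 and 2 did not pass, and only 3 in each direction by at least 2-fold. The glucose transporter SLC2A1 (59 and 59.1 in NCI-H526 and 15.4 and 16.1 in NCI-H1048, log2 difference 1.87) and the oxygen sensor EGLN3 (log2 difference 2.1) were higher in NCI-H526, and VEGFA in NCI-H1048 (44.9 and 48.5 in NCI-H526 and 141 and 134 in NCI-H1048, log2 difference -1.55). In cholesterol synthesis 6 of 20 were higher in NCI-H526 and 10 in NCI-H1048. The 2 genes at least 2-fold apart were SC5D, a sterol desaturase (411 and 421 in NCI-H526 and 54.4 and 54.4 in NCI-H1048, log2 difference 2.92), and STARD4, a sterol carrier (21.6 and 22.9 in NCI-H526 and 79.6 and 81.8 in NCI-H1048, log2 difference -1.83). In the NRF2 and glutathione list 12 of 26 were higher in each line, with ME1 (malic enzyme) at 25.6 and 25.9 in NCI-H526 and 0.025 and 0.0595 in NCI-H1048, and NFE2L2, which encodes NRF2 itself, at 136 and 137 in NCI-H526 and 263 and 286 in NCI-H1048 (log2 difference -1.0). AKR1B1, an aldose reductase, was 299.7 and 302 in NCI-H526 and 2.82 and 3.21 in NCI-H1048 (log2 difference 6.42 ± 0.069 SE). Cancer testis antigens included MAGEA3 (183 and 188 in NCI-H526 and 2.78 and 2.23 in NCI-H1048) and MAGEA6 (149 and 151 in NCI-H526 and 2.25 and 2.35 in NCI-H1048) in NCI-H526, copies close enough in sequence that reads may be split between them, and PRAME in NCI-H1048 (15.6 and 16.1 in NCI-H526 and 74.6 and 77.3 in NCI-H1048, log2 difference -2.23).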
